A study of Mus musculus with 12 samples.

Results

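Voltage-gated sodium and calcium channel subunits are the proteins that build the channels for rapid sodium and calcium entry in excitable cells. They were taken from the deposited expression table as its protein-coding rows whose symbol names a sodium channel alpha or beta subunit, a calcium channel alpha1 subunit, an alpha2delta subunit or a calcium channel beta subunit. This gave 32 of 28842 genes: 10 sodium alpha, 4 sodium beta, 10 calcium alpha1, 4 alpha2delta and 4 calcium beta subunits. RNA had been sequenced from the prefrontal cortex of wild-type male C57BL/6J mice, an inbred laboratory strain, with 6 libraries in each of 2 groups. The saline group was given saline and the cocaine group 15 mg/kg cocaine in adolescence, from postnatal day 28 to 42. Mice of both groups later received 1 mg/kg cocaine on days 76 and 77, before training in conditioned place preference, in which an animal chooses between a drug-paired and an unpaired place. Tissue was taken on day 78, within 30 to 60 min after the behavioural test. The comparison therefore asks how adult cortex differs by adolescent treatment when all animals have had adult cocaine; no group without adult cocaine was analysed here. Whether the libraries are separate mice is not stated in the labels; p-values here refer to the spread among the 12 libraries, which may be technical.

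In a neuron, the pore of a sodium channel is a single large alpha protein, and its opening starts and carries the action potential. Sodium beta subunits are small membrane proteins that alter gating, placement and surface amount of the pore. A calcium channel pore is an alpha1 protein, and the alpha1 subtypes differ in the voltage they need: L, P/Q, N and R types open at strong depolarisation and T types at weak depolarisation. Alpha2delta proteins sit outside the cell and beta proteins inside it, and both raise the amount of high-voltage channel at the surface. In cortex these channels set firing, dendritic excitability and transmitter release.

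The libraries held 16.7 to 19.9 M recovered reads. They carried the markers of cortex, given as FPKM (reads per kilobase of deposited gene length and M reads). The summed level of 8 excitatory neuron markers was 711 to 943 FPKM and that of 8 interneuron markers 501 to 832 FPKM. Markers of muscle (6 genes, 3.57 to 6.45 FPKM), sensory neurons (4 genes, 1.204 to 2.003 FPKM) and retina (4 genes, 0.0752 to 0.249 FPKM) were low. Those of striatal projection neurons (6 genes) summed to 43.4 to 71.7 FPKM in saline and 45.8 to 71.9 FPKM in cocaine. Saline 5 stood apart by 4 choroid plexus markers, at 539 FPKM in sum against 0.271 to 1.64 FPKM in the other 11 libraries. Summed oligodendrocyte markers varied from 356 to 2641 FPKM in saline and from 539 to 2190 FPKM in cocaine, and no marker of any list was at 0 in all 12 libraries. Between groups, all 12 oligodendrocyte markers were below 0 in the log2 difference, cocaine minus saline (median -0.19), and all 4 red blood cell markers above 0 (median 0.50), with 0 of either past an adjusted limma p of 0.05. The SE was 0.41 to 0.52 for the oligodendrocyte markers, larger than any of their differences, and 0.21 to 0.38 for the red blood cell markers. In bulk tissue, fewer cells of a type and less RNA per cell cannot be told apart.

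Promoter windows from 250 bases before to 50 bases after the RefSeq start were matched for 24 of the 32 genes, with 34 windows in all (build GRCm38.p6). A window of each of 5 genes is shown; Scn2a and Scn8a each have a second window that is not printed. Scn2a, Scn2b, Scn8a and Cacna1b are printed because their levels had the highest correlations with the excitatory neuron markers or the gene length measure described further on, and Cacna2d2 because it gave the smallest p between groups. They are written 5′ to 3′ on the strand of the gene, and capitals mark CG dinucleotides.
Scn2a, chr2:65620519-65620818, plus strand: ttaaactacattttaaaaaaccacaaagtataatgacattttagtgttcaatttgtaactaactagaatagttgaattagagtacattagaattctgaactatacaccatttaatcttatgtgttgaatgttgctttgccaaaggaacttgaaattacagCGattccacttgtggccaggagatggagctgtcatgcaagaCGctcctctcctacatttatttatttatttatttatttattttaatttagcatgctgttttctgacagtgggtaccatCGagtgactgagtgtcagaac
Scn2b, chr9:45117626-45117925, plus strand: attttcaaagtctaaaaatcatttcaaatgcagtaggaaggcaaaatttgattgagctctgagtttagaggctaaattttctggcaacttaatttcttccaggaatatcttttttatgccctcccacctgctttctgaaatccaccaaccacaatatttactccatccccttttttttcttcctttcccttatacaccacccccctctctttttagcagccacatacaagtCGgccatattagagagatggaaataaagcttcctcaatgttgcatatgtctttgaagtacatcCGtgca
Scn8a, chr15:100870395-100870694, plus strand: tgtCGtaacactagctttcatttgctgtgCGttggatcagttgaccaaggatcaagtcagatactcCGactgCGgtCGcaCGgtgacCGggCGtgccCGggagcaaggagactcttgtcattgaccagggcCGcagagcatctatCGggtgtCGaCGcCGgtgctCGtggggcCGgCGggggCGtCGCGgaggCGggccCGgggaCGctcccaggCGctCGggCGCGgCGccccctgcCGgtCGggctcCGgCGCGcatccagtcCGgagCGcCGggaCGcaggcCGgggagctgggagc
Cacna1b, chr2:24763103-24763402, minus strand: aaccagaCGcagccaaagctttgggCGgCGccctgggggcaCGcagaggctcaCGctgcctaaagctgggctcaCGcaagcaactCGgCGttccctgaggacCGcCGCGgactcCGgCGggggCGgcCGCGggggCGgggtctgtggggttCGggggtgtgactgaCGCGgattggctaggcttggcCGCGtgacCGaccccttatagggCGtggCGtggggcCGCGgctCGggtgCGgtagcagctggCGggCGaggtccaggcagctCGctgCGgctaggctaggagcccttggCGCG
Cacna2d2, chr9:107399630-107399929, plus strand: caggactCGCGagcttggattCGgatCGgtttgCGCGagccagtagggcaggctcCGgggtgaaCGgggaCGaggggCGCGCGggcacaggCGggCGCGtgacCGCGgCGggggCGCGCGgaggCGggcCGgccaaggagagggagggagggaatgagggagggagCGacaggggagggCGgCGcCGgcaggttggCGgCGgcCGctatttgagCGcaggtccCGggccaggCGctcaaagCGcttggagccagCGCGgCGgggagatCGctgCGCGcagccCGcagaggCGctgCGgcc
The printed windows of these 4 genes differed in base composition. That of Scn2a had 33.0% G or C and 3 CG dinucleotides and Scn2b 38.3% and 2, whereas Scn8a had 70.0% and 38 and Cacna1b 72.3% and 35. The second windows of Scn2a and Scn8a lay closer together, at 47.7% and 9 and at 53.3% and 12. Cacna2d2 had 75.7% and 43, and the median was 7 CG dinucleotides over all 32851 windows and 10 over the 34 windows of the channel genes. The GC box GGGCGG, searched on both strands, was present 3 times in the Cacna1b window and once in that of Cacna2d2, and not in the other printed windows. It occurred in 14 of the 34 windows of channel genes (41.2%) and in 35.7% of all windows. The short cyclic AMP response motif TGACG occurred in 6 of the 34 (17.6%) and in 20.8% of all, and TATAAA in 2 (5.88%) and in 13.6%. The longer motif TGACGTCA (1.79% of all windows), TGANTCA (7.81%) and TTCAGCACC (0.371%) had no match in a window of a channel gene. These matches describe letters in the windows only.

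Of the 32 genes, 23 had a mean of at least 1 FPKM over the 12 libraries, the level asked for a gene to be tested, and 9 were below it. All 4 sodium beta and all 4 calcium beta subunits passed, as did 8 of 10 calcium alpha1, 3 of 4 alpha2delta and 4 of 10 sodium alpha subunits. Levels are given here as FPKM, which is per length, so that genes can be set side by side. The dependence on length also differed between libraries, as described further on. Division by length does not remove that part from the levels or from the shares within a class.

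Among sodium channel pores, Scn2a (chr2:65620771-65767447), the Nav1.2 channel of excitatory neurons, had the highest mean, at 23.6 ± 13.0 FPKM in saline (SD, n = 6) and 23.1 ± 8.77 FPKM in cocaine. Scn8a, the Nav1.6 channel concentrated at the axon initial segment and nodes of Ranvier, followed at 17.01 ± 5.84 and 15.7 ± 3.71 FPKM. Scn1a, the Nav1.1 channel prominent in fast-spiking interneurons, was at 8.66 ± 1.96 and 8.59 ± 1.14 FPKM. The ranges of Scn2a and Scn8a overlapped across libraries. Within single libraries Scn2a was above Scn8a in all but saline 5, saline 6 and cocaine 1. Scn3a, the Nav1.3 channel best known from fetal brain, had 3.97 ± 1.04 and 3.82 ± 0.667 FPKM. These 4 brain pores held nearly all of the alpha RNA. Scn2a, Scn3a and Scn1a lie close together on chromosome 2, and 5.62%, 6.49% and 4.03% of their 50-base stretches also occur in another channel gene, so a small part of their reads could have been split.

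The other 6 sodium alpha genes were under the filter. Scn7a, the sodium-sensing Nax protein, was at 0.660 ± 0.306 and 0.626 ± 0.135 FPKM, and Scn9a, the Nav1.7 pore of peripheral sensory neurons, at 0.248 ± 0.0464 and 0.244 ± 0.0514 FPKM. Scn10a and Scn11a, the Nav1.8 and Nav1.9 pores of pain-sensing neurons, had means under 0.04 FPKM in both groups, with 65 and 22 recovered reads over all 12 libraries. Scn4a, the skeletal muscle channel, had 3 reads in all: 2 in saline 2, 1 in cocaine 5 and 0 in the other 10 libraries. No channel gene was at 0 in every library, and Scn11a was at 0 in 4.

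Among the sodium beta genes, Scn2b, whose product is disulfide-linked to the pore, was at 62.4 ± 14.2 FPKM in saline and 62.8 ± 8.41 FPKM in cocaine. Scn3b, whose product binds the pore without a disulfide bond, had 26.8 ± 1.504 and 26.6 ± 1.72 FPKM. Scn4b, whose tail can block open pores and give resurgent current, had 9.32 ± 4.48 and 8.43 ± 2.61 FPKM. The libraries of Scn2b, Scn3b and Scn4b were in that order without overlap.

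Calcium channel pores were spread more evenly over subtypes. Cacna1a, the P/Q-type pore of fast transmitter release, was at 15.2 ± 1.87 FPKM in saline and 14.3 ± 2.24 FPKM in cocaine. Cacna1e, the R-type pore, had 11.9 ± 2.89 and 11.2 ± 1.66 FPKM, and Cacna1b, the N-type pore, 11.9 ± 3.57 and 10.8 ± 2.54 FPKM. The T-type pores Cacna1g, Cacna1i and Cacna1h, which open near rest and support burst firing, had 11.1 ± 1.00, 10.4 ± 2.56 and 6.97 ± 0.887 FPKM in saline. Their levels in cocaine were 10.9 ± 2.56, 10.004 ± 2.41 and 6.797 ± 1.15 FPKM. The means of Cacna1e, Cacna1b, Cacna1g and Cacna1i differed from their neighbours by less than the SD. The neuronal L-type pores Cacna1d and Cacna1c, which link calcium entry to gene expression, were at 4.0001 ± 0.900 and 3.20 ± 1.00 FPKM in saline and 3.85 ± 0.564 and 3.06 ± 0.673 FPKM in cocaine. Cacna1f, the retinal L-type pore, had means of 0.0515 and 0.0426 FPKM, and Cacna1s, the skeletal muscle pore, 0.0410 and 0.0284 FPKM.

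Cacna2d1, a gabapentin-binding subunit, led the alpha2delta class at 17.99 ± 2.95 FPKM in saline and 18.2 ± 2.16 FPKM in cocaine. Cacna2d3 was at 6.24 ± 1.00 and 6.88 ± 0.798 FPKM, and Cacna2d2, the other gabapentin-binding subunit, at 4.17 ± 0.958 and 3.28 ± 0.485 FPKM. Cacna2d4, known from photoreceptors, was under the filter at 0.377 ± 0.150 and 0.287 ± 0.0345 FPKM. Among the intracellular beta subunits, Cacnb3 was highest at 77.03 ± 4.96 and 79.3 ± 13.96 FPKM. Cacnb1 had 41.4 ± 2.36 and 41.4 ± 6.21 FPKM, and Cacnb4, mutated in the epileptic lethargic mouse, 22.4 ± 3.37 and 22.0 ± 2.27 FPKM. Cacnb2, the main heart beta subunit, had 2.75 ± 0.400 and 2.95 ± 0.252 FPKM. The libraries of Cacnb3, Cacnb1, Cacnb4 and Cacnb2 were in that order without overlap.

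**Figure D1:**
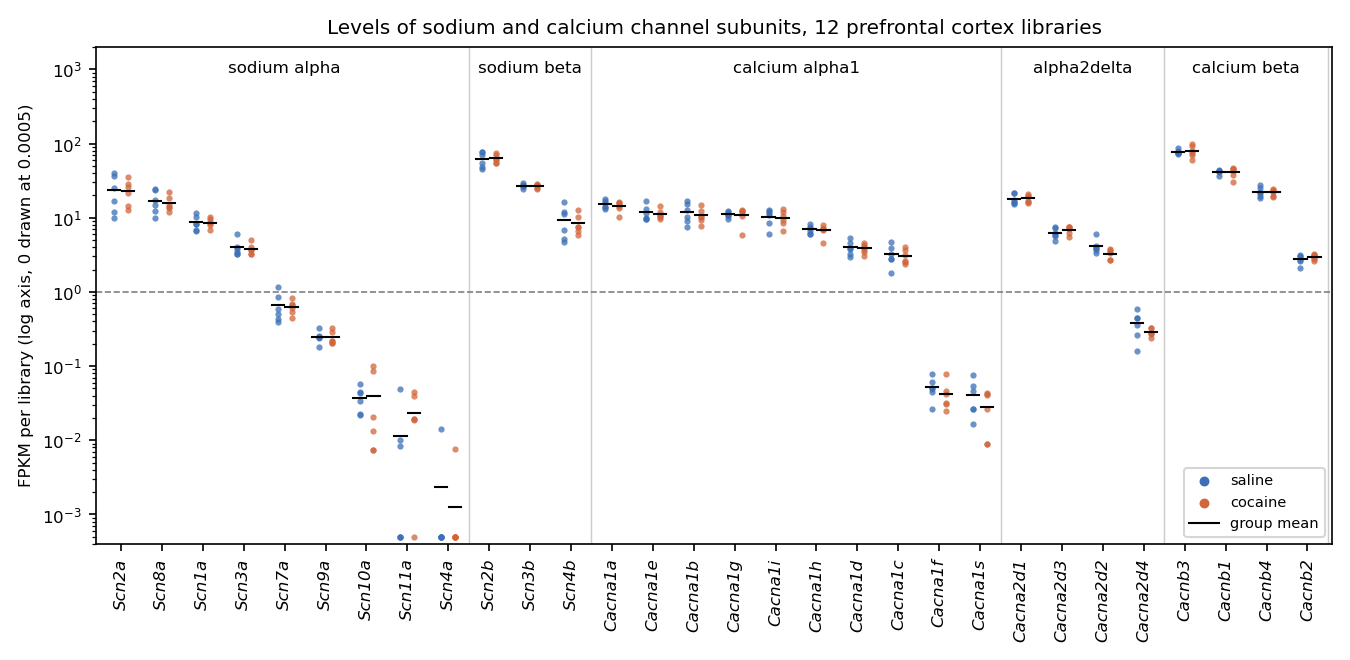
Level of 30 channel subunit genes in FPKM, on a log axis, with 1 point per library (6 saline, 6 cocaine), genes ordered by class and short bars at the group means; a value of 0 is drawn at the bottom edge and the dashed line marks 1 FPKM. The points of both groups overlap for every gene plotted, Cacnb3 lies at 60.7 to 97.1 FPKM, and 8 genes lie under the dashed line by their mean.

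Between groups, no channel subunit passed the threshold. The fit was limma on log2(value + 1) of normalised reads over all 13016 genes tested, with Benjamini-Hochberg adjustment, and 0 of 23 subunits had an adjusted p under 0.05, with 0% of all genes tested passing. At an unadjusted p under 0.05 there was 1 subunit, Cacna2d2, lower in cocaine, against 1.14% of all genes tested and 0.469% in that direction; 0 subunits were higher at that level, against 0.676% of all genes. edgeR on recovered reads called 0 of 27 subunits after adjustment (0% of all genes) and 1 unadjusted (1.58% of all genes). DESeq2 called 0 of 32 after adjustment (0.0104% of all genes) and 1 unadjusted (1.48% of all genes), and that subunit was Cacna2d2 with each tool. No subunit had groups that did not overlap, against 0.0768% of all genes tested. In log2 units, 8 subunits had estimates above 0 and 15 below, with a median of -0.03, and over all genes tested 6990 were above and 6026 below, with a median of 0.01. By class the medians were -0.02 for sodium alpha, 0.01 for sodium beta, -0.05 for calcium alpha1, 0.02 for alpha2delta and 0.00 for calcium beta. The median moved with single libraries, to -0.10 without saline 5 and 0.04 without saline 4.

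Cacna2d2 (chr9:107399612-107529343, plus strand) had 451 normalised reads in its lowest saline library, 566 at the median and 826 in the highest, against 372, 473 and 537 in cocaine. The highest value was saline 5, and the groups overlapped between 451 and 537. Its log2 difference was -0.33 ± 0.14 (SE; 95% interval -0.64 to -0.03), with an unadjusted limma p of 0.0338, an exact two-sided permutation p of 0.0476 and an adjusted limma p of 1.00. In the authors' deposited table its log2 fold change was -0.35 with p = 0.0247 and an adjusted p of 1.00. Without saline 5, the library with choroid plexus RNA, the difference was -0.23 (exact permutation p = 0.0952). The exact permutation p was above 0.05 without any 1 of 8 of the 12 libraries (saline 2, 3, 4 or 5, cocaine 1, 3, 5 or 6), at 0.0649 to 0.0952; this check was chosen after seeing the data. With the oligodendrocyte score as a covariate the difference was -0.33. The mean score was 0.0895 ± 1.12 in saline and -0.0895 ± 0.696 in cocaine (SD, n = 6), close together for its spread. This covariate could therefore shift the difference only a little. Exons of Cacna2d2 share 82 bases with Gm17141 on the opposite strand, and the strand setting of the counting is not given in the sources used here. Such an overlap was present for 9 of the 32 channel genes, so the limit is not particular to Cacna2d2. The largest were those of Cacnb4 (1433 bases), Cacna1s (1309) and Cacnb2 (968).

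The other 2 tested alpha2delta genes had estimates above 0. Cacna2d3 had 723, 943 and 1190 normalised reads in saline (lowest, median, highest) and 840, 1101 and 1191 in cocaine. The groups overlapped over most of their range, and the log2 difference was 0.14 ± 0.13 (exact permutation p = 0.312). Cacna2d1 was at 0.02 ± 0.13.

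Cacnb2 had 471, 659 and 757 normalised reads in saline and 595, 685 and 764 in cocaine, a log2 difference of 0.11 ± 0.12 (exact permutation p = 0.409). The lowest library was in saline, and the upper ends of both groups nearly coincided. Cacnb3 (0.02 ± 0.11), Cacnb1 (-0.02 ± 0.11) and Cacnb4 (-0.02 ± 0.12) were near 0.

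All 8 tested calcium alpha1 genes had estimates below 0, from -0.12 to -0.03, and none passed the threshold. The signs were the same after rescaling to equal column sums or upper quartiles, but 5 of 8 were below 0 with library weights, 3 of 8 without cocaine 3 and 2 of 8 without saline 4. The genes also shared their deviations over libraries, described further on, so the 8 signs are not independent. Cacna1a had 2554, 2984 and 3725 normalised reads in saline and 2025, 3021 and 3283 in cocaine (-0.10 ± 0.13, exact permutation p = 0.502). Cocaine 3 was its lowest library, and the medians of the groups lay close together. Cacna1b had 1296, 1991 and 2999 in saline and 1326, 1755 and 2713 in cocaine (-0.12 ± 0.22, exact permutation p = 0.634). Both groups covered nearly the same range. Cacna1e had 4085, 4820 and 7807 in saline and 4272, 4669 and 6543 in cocaine (-0.07 ± 0.16, exact permutation p = 0.725), with saline 4 highest. Cacna1g had 1653, 1978 and 2277 in saline and 1038, 2143 and 2318 in cocaine (-0.06 ± 0.17, exact permutation p = 0.896). Its cocaine libraries held both the lowest value, cocaine 3, and the highest. Cacna1h, Cacna1i, Cacna1d and Cacna1c were between -0.05 and -0.03.

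The tested sodium subunits lay between -0.08 ± 0.23 for Scn8a and 0.08 ± 0.38 for Scn2a. Precision differed widely between genes: the 95% interval of Scn2a ran from -0.73 to 0.88 and that of Scn3b from -0.18 to 0.15.

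**Figure D2:**
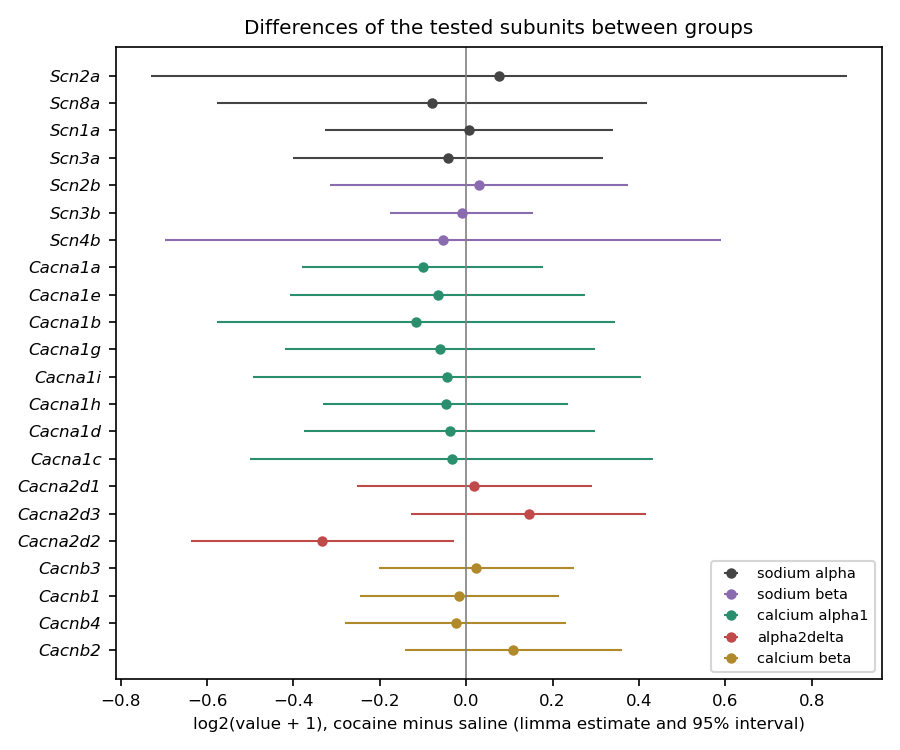
Difference of 22 tested subunits between groups, cocaine minus saline, in log2(value + 1), as the limma estimate (point) with its 95% interval (line), coloured by class. The interval of Cacna2d2, -0.64 to -0.03, lies below 0, that of each other gene plotted includes 0, and the interval of Scn2a is the widest.

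The 9 genes under the filter were read from a fit without a filter, in which none passed (adjusted limma p 1.00 for each). Scn11a was at 0.84 ± 0.51 on 22 reads in all and Cacna2d4 at -0.28 ± 0.25. Cacna1s, Cacna1f, Scn10a, Scn4a, Scn9a and Scn7a ranged from -0.45 for Cacna1s to 0.01 for Scn7a.

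No difference between groups in the summed level or the make-up of a channel class passed the threshold. Summed over the class, sodium alpha RNA was 54.5 ± 21.6 FPKM in saline and 52.3 ± 13.7 FPKM in cocaine (SD, n = 6 each; exact two-sided permutation p = 0.838). Calcium alpha1 RNA was 74.6 ± 13.4 and 71.0 ± 12.2 FPKM (exact p = 0.623). Alpha2delta RNA was 28.8 ± 3.37 and 28.6 ± 2.70 FPKM (exact p = 0.916), and calcium beta RNA 144 ± 5.24 and 146 ± 17.4 FPKM (exact p = 0.812). The smallest Benjamini-Hochberg adjusted p of the 5 sums was 0.916. Sodium alpha RNA varied widely among libraries, from 31.3 to 82.3 FPKM, and calcium beta RNA less, from 118.8 to 165.8 FPKM.

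Within sodium alpha, Scn2a made up 40.9 ± 7.60% in saline and 43.1 ± 6.51% in cocaine (SD, n = 6; exact permutation p = 0.606), and 31.4 to 50.8% over the libraries. Scn8a held 31.8 and 30.3%, Scn1a 16.9 and 16.9%, and Scn3a 7.78 and 7.46%. Cacna1a led the calcium pores with only 20.6 and 20.2%, so no subtype dominated that class. Cacna2d1 led the alpha2delta class with 62.3 and 63.4%, where Cacna2d3 held 21.7 and 24.0% (exact p = 0.126) and Cacna2d2 14.6 ± 3.75 and 11.5 ± 1.91% (exact p = 0.0563). Cacnb3 led the calcium betas with 53.6 and 54.2%. Of 32 shares tested, 0 had an exact p under 0.05, and the smallest adjusted p was 1. The smallest exact p that the design allows is 0.00216. After adjustment over 32 shares, 1 share alone at that p would stay above 0.05. The adjusted test could therefore not call a single share.

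**Figure D3:**
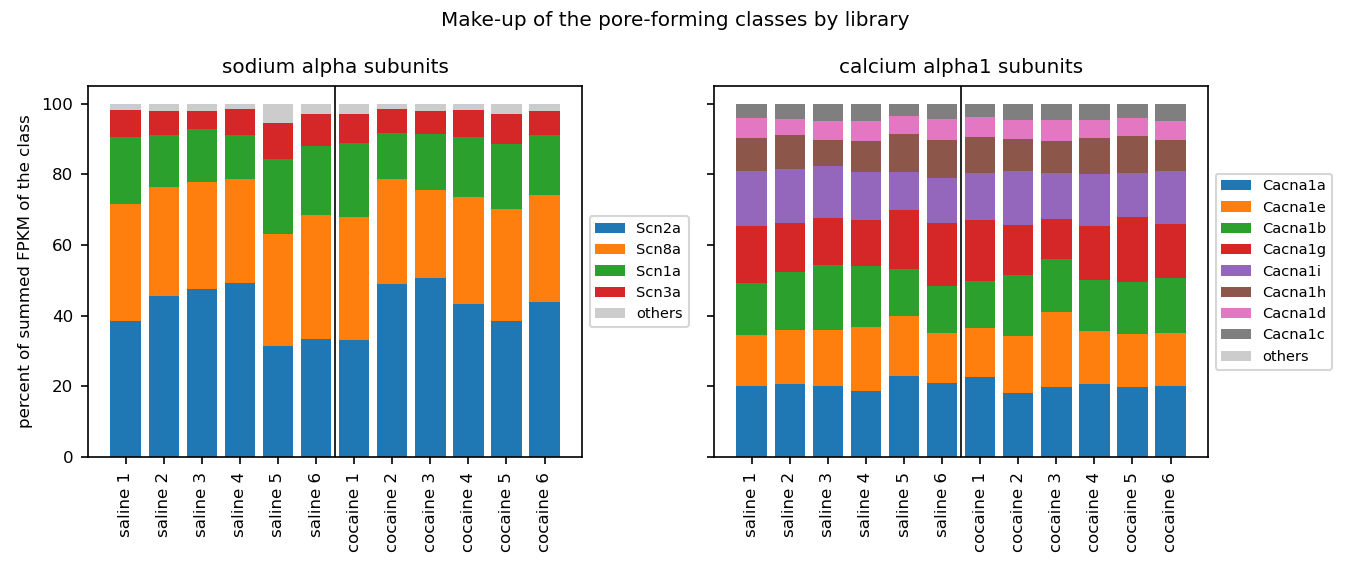
Make-up of the sodium alpha and calcium alpha1 classes in each of the 12 libraries, as percent of the summed FPKM of the class, stacked by gene with minor genes in grey; a vertical line separates saline from cocaine. Scn2a takes 31.4 to 50.8% of sodium alpha RNA, and Cacna1a 18.04 to 22.9% of calcium alpha1 RNA.

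The larger pattern among these genes was variation between libraries within both groups. Scn2a had 3737, 5764, 8643, 9396, 2142 and 2550 normalised reads in saline 1 to 6, and 2821, 8335, 6290, 4694, 3201 and 5898 in cocaine 1 to 6. The highest library was 4.39 times the lowest, and both groups held libraries at either end. Set against 6695 genes with 500 or more normalised reads on average, the SD of Scn2a between libraries on the log2 scale was at percentile 99.2. Scn4b was at percentile 98.4, with 393 to 1473 normalised reads in saline and 504 to 1106 in cocaine. Scn8a was at 96.5, with 2694 to 6910 and 3239 to 6308. Cacna1c was at 95.5 and Cacna1b at 95.4. Scn3b was the steadiest channel gene, at percentile 15.4, and ranged from 2294 to 2898. Genes whose products sit in the same channel thus differed in how much they varied, with the pores above most genes and Scn3b below most.

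**Figure D4:**
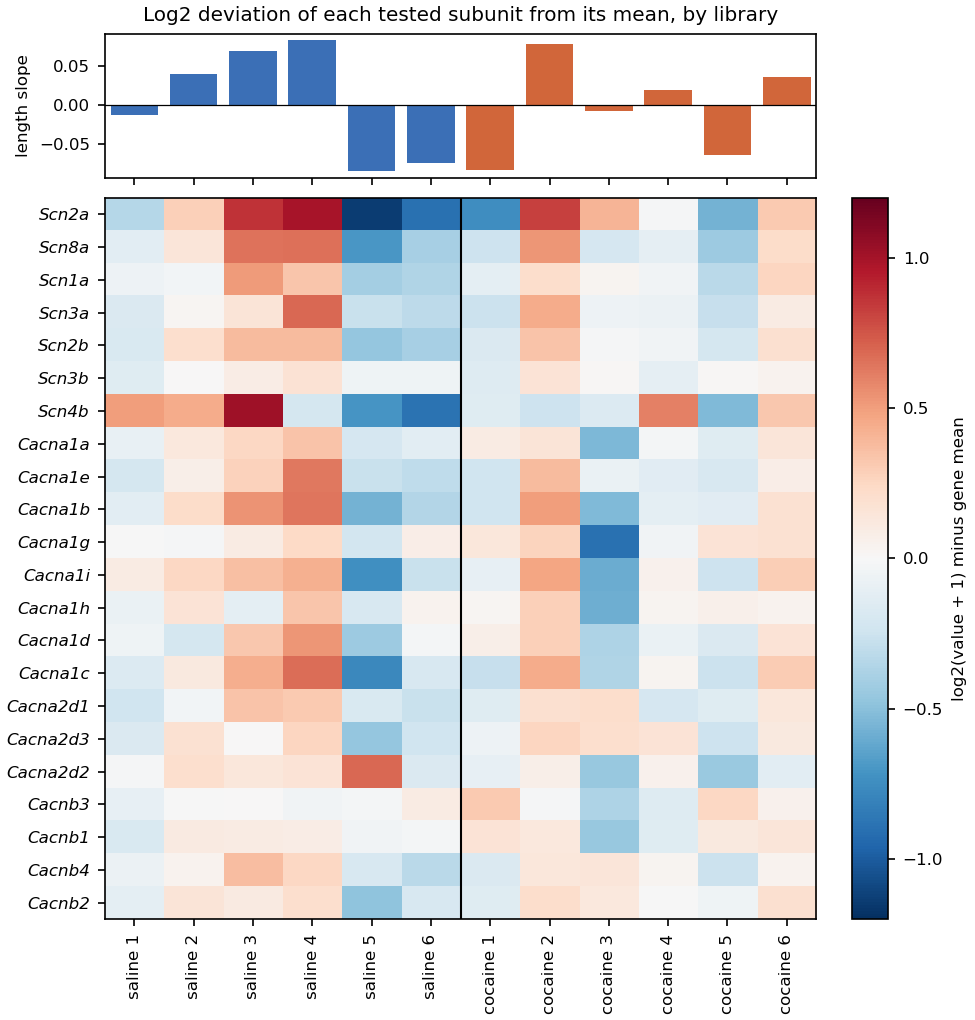
Log2 deviation of 22 tested subunits (rows) from its mean over the 12 libraries (columns), as colour, below bars of the length slope of each library. Saline 3 and cocaine 6 have 21 of 22 rows above 0 and saline 5 has 1, where Scn2a is at -1.14; the bar of saline 5 is the lowest and that of saline 4 the highest.

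Most subunits moved with the excitatory neuron markers over the 12 libraries. The marker score of a library was the mean log2 deviation of 8 genes, among them Slc17a7, Neurod6, Tbr1 and Camk2a, and Pearson's r was taken for 23 subunits and 3 scores, 69 pairs in all. With the excitatory score, r was positive for 21 of 23 subunits and its permutation p, adjusted over the 69 pairs, was under 0.05 for 14, with all 14 positive. The median r was 0.79 over the subunits and -0.01 over the 12993 other genes tested, and 15 subunits (65.2%) had r above 0.7 against 17.8% of the other genes. By group, the median r of the subunits was 0.87 within saline and 0.65 within cocaine, and 21 kept their sign in both. For Scn2a it was 0.97 within saline and 0.35 within cocaine. Scn2b had the highest r, 0.92 (Spearman's rho 0.90; permutation p = 7e-05, adjusted 0.00276), with 0.98 within saline, 0.70 within cocaine and 0.87 without the 2 libraries farthest from the median score. Scn8a had r = 0.91 (rho 0.83, permutation p = 8e-05, adjusted 0.00276) and 0.84 without those libraries. Cacna1b had r = 0.91 (rho 0.87, permutation p = 0.00015, adjusted 0.00345) and 0.86 without them. Within the libraries of time tag 0 and of time tag 5, a label of unknown meaning, r was 0.88 and 0.95 for Scn2b, 0.86 and 0.96 for Scn8a and 0.86 and 0.96 for Cacna1b. Low r were those of Cacna2d2 (-0.01), Cacnb3 (0.16) and Scn4b (0.45). The value for Cacna2d2 rested on single libraries: without saline 3 and saline 5, the 2 farthest from the median score, its r was 0.50, and it was -0.16 within saline and 0.50 within cocaine.

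The score of 12 oligodendrocyte markers gave negative r for 22 of 23 subunits, with a median of -0.53 and none under an adjusted p of 0.05 (0 of 23). Cacna1d had the lowest r, -0.69 (rho -0.64, permutation p adjusted 0.0608), followed by Cacna2d1 (-0.63) and Cacna1e (-0.62), and the highest were Cacna2d2 (0.17) and Scn4b (-0.06). The relation was not the same within groups: the median r was -0.85 within saline and 0.16 within cocaine, and 9 subunits kept their sign in both. For 8 interneuron markers r ran from -0.62 (Cacna1h) to 0.27 (Scn4b), with a median of -0.30 and 0 under an adjusted p of 0.05 by Pearson's r. Spearman's rho for Cacna1h was -0.80 with an adjusted permutation p of 0.0187. Scn3a (-0.52) and Cacna1e (-0.45) were next lowest, and Cacna2d2 had 0.17. The interneuron relation was not the same in both time tags. Within tags 0 and 5, r was 0.69 and -0.87 for Scn3a, 0.57 and -0.83 for Cacna1e and 0.58 and -0.46 for Cacna2d2. It was 0.69 and -0.10 for Scn4b, and negative in both for Cacna1h (-0.24 and -0.66). For the genes of opposite sign, r over all 12 libraries describes neither tag.

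Channel genes are long in exon bases, and the dependence of the signal on this length moved with the same pattern. Length is the deposited gene length, which for each channel gene equalled the bases of its exons. It is not the span of the gene on the chromosome. The median length of the tested subunits was 9942 bases against 4117.5 bases over all genes tested, and 21 of 23 were longer than that median. For each library a length slope was taken, the slope of log2 deviation on log2 gene length over the tested genes other than the channel subunits; this measure was added after seeing the data. It ran from -0.0844 to 0.0827, with means of 0.00353 ± 0.0719 in saline and -0.00353 ± 0.0607 in cocaine (SD, n = 6; exact permutation p = 0.861), and 3 libraries of each group were below 0. Its r with the excitatory score was 0.78. Scn2a followed it most closely, with r = 0.96 (rho 0.94, permutation p = 1e-05, the smallest that the resamples can give, adjusted over 23 pairs 0.000115), 0.99 within saline, 0.93 within cocaine and 0.94 without the 2 farthest libraries. Scn2b had 0.95 and Scn8a 0.94, whereas Cacnb3 had -0.39. Within the family r did not rise steadily with length. Scn2b and Cacnb3 have similar lengths, 4656 and 4010 bases, and Cacna1g, at 10137 bases, had r = 0.23. In all, 21 of 23 r were positive and 15 had an adjusted p under 0.05. Of the 23 subunits, 14 (60.9%) had r above 0.7, against 61.8% of the 1194 other tested genes of at least 9942 bases and 23.2% of all other genes. The cut of 9942 bases is the median of the subunits, so the 60.9% also counts shorter subunits, such as Scn2b. The shares are therefore not matched for length and do not show whether the subunits differ from other long genes. What part length has in the relation to the neuron markers was not tested.

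With the length slope as a covariate, the SE of Scn2a was 0.11 instead of 0.38 and that of Scn8a 0.09 instead of 0.23, at log2 differences of 0.15 and -0.03. At an unadjusted limma p under 0.05 there were then 2 of 23 subunits, Cacna2d2 (-0.33 ± 0.14) and Cacna2d3 (0.17 ± 0.07), of opposite sign. Neither passed adjustment (adjusted limma p 0.999). The count over all 13016 genes tested also rose with this covariate, from 149 to 442.

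**Figure D5:**
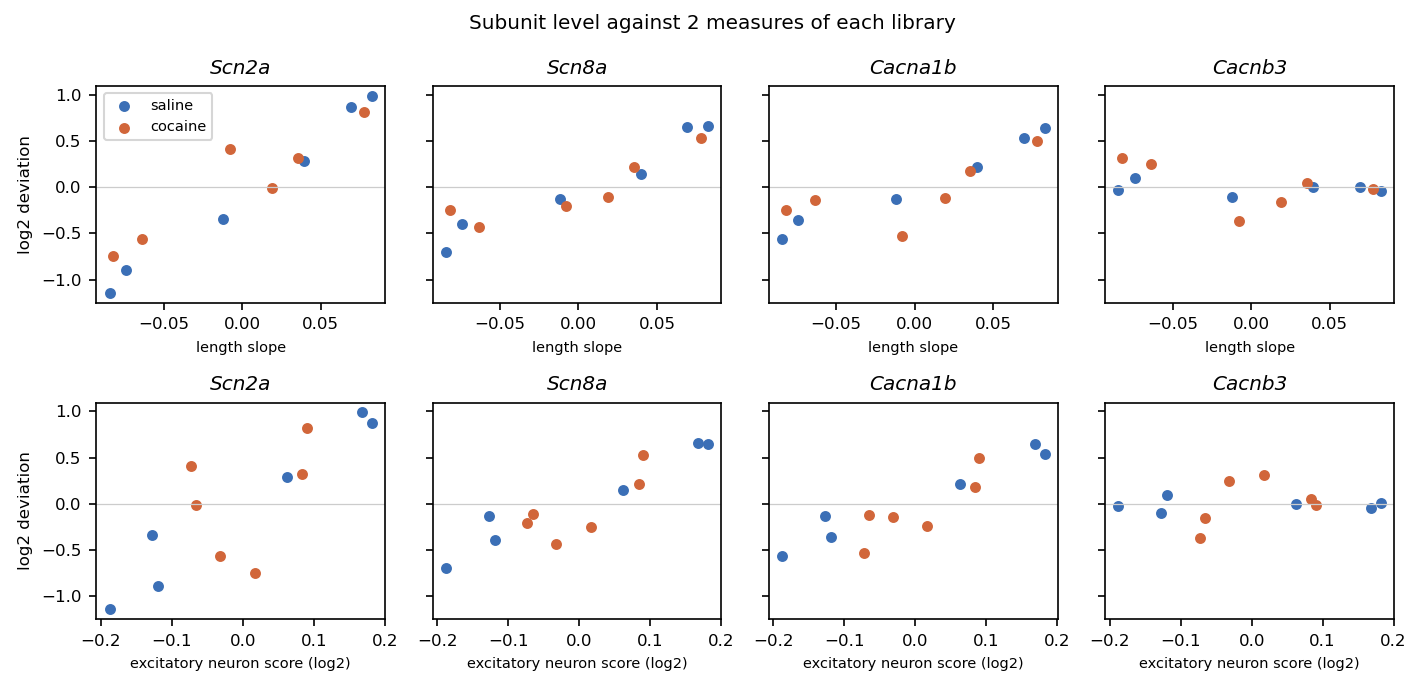
Log2 deviation of Scn2a, Scn8a, Cacna1b and Cacnb3 (y axis) against the length slope (top row) and the excitatory neuron score in log2 (bottom row), 1 point per library, coloured by group. The first genes climb with both measures (r of Scn8a 0.94 and 0.91), and Cacnb3 has r of -0.39 and 0.16.

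Genes that work with these channels were read from 3 lists. Of sodium channel partners, which anchor or modify the pore, 16 of 17 in the table were tested, with 7 above 0, 9 below, 0 past the threshold and a median of -0.01. The smallest p were those of Nfasc, the neurofascin of axon initial segment and nodes (-0.19 ± 0.13), and Pkp2, a desmosome protein (-0.18 ± 0.14). Of leak and related cation channels, 5 of 9 were tested, with 2 above, 3 below, 0 past the threshold and a median of -0.05, led by Unc79, a part of the sodium leak channel complex (-0.14 ± 0.12), and Tpcn1, an endosomal channel (-0.05 ± 0.09). Of calcium channel partners, 20 of 27 were tested, with 8 above, 12 below, 0 past the threshold and a median of -0.02. Rrad, a small G protein that restrains the channel, was at 0.30 ± 0.22, and Calm2, a calmodulin gene, at 0.10 ± 0.10.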

How the data were processed

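The authors deposited 1 table of the series. Each library has a column of values, which are a signal: read counts that the authors divided by library size factors, since 100% of the values were whole multiples of 1 read's value (within 0.01 read), from which reads were recovered. Other deposited columns give group means, gene length in bases, and the authors' log2 fold change, p-value and adjusted p-value, per the file headers. The submitters' processing notes name HISAT2 2.0.5; counter, strand setting and annotation: not given in the sources used here. The build given there is hg38 and the labels name a mesenchymal cell line, which do not match the mouse cortex; gene IDs are mouse, and all 32 genes had the start and end of GENCODE M21 (GRCm38).

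FPKM were computed from recovered reads and deposited gene lengths. Genes with a mean of at least 1 FPKM were tested on log2(value + 1), pseudocount 1, with limma 3.58.1 in R 4.3.3 and Benjamini-Hochberg adjustment, all genes together. Group sums and shares used exact two-sided permutation, and correlations 100000 resamples. edgeR 4.0.16 and DESeq2 1.42.0 on recovered reads were alternatives, and the scripts were tested on simulated data. The genes and gene lists were chosen with earlier results of these data known. Of the 32 genes, 2 are counted in totals but their own values are not reported here. Genes named are all channel subunits of at least 1 FPKM, with those of smallest p in full, and the top genes of each list by p.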

Additional observations from a re-analysis of the deposited data

Results flagged for a closer look

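Of 78 groups of 6 libraries examined, 6 held a library far from the others by Dixon's 95% criterion, and chance gives about 1 in 20. The 78 cover more than the levels of the 32 channel genes in 2 groups, whereas the 6 flagged are all levels of channel genes. Cacna2d2 had 826 normalised reads in saline 5 (nearest library 586). Cacna1g had 1038 in cocaine 3 (nearest 1875.0), and Cacna1h had 781 there (nearest 1189). Scn11a had 5.31 in saline 4 (nearest 1.01). Scn4a had 1.80 in saline 2 and 0.919 in cocaine 5, with 0 in the nearest library of each; these are 2 reads and 1 read.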

How the results depend on the processing

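No setting run with limma or edgeR (pseudocount, filter, gene set, scaling, variance trend, library weights, covariates, replicate block, leave-one-out) called a channel subunit at an adjusted p under 0.05. DESeq2 called 3 of all genes, none a channel subunit. At an unadjusted p under 0.05 there was 1 subunit in the main analysis, 0 with a filter of 5 FPKM (18 subunits tested; Cacna2d2 is below it), 0 with the replicate block and 2 with the length slope. Over all genes that count was 149, and 406, 49 and 715 with filters of 0.1 FPKM, 5 FPKM and none, 322 with library weights, 442 with the length slope, 253 with edgeR, 860 with edgeR without a filter and 428 with DESeq2. With library weights Cacna1g was at 0.0254 instead of -0.06. Only 2 of 6 same-numbered pairs deviated together (correlations -0.11, 0.43, 0.00, -0.12, 0.39 and -0.40), so the numbers were not taken to pair libraries. Leaving out each library gave log2 ranges of -0.40 to -0.23 for Cacna2d2, 0.07 to 0.21 for Cacna2d3, 0.02 to 0.16 for Cacnb2, -0.15 to -0.00 for Cacna1a, -0.24 to 0.0012 for Cacna1b, -0.15 to 0.0540 for Cacna1e, -0.12 to 0.11 for Cacna1g and -0.10 to 0.04 for the median; 122 to 203 genes and 0 to 1 subunits at an unadjusted p under 0.05; and 0 to 0 past adjustment. Summed levels then differed by -11.8 to 6.87% for sodium alpha, -9.28 to 0.621% for calcium alpha1, -3.16 to 2.50% for alpha2delta and -1.46 to 5.08% for calcium beta. Shares differed by 0.268 to 4.17 points for Scn2a, -0.853 to 0.0946 for Cacna1a, 0.471 to 2.26 for Cacna2d1 and -0.345 to 1.35 for Cacnb3. The cause of these changes was not tested.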
